A study of Homo sapiens with 16 samples.

Results

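A set of 2659 regions of open chromatin had a peak in all 4 libraries of Raf-inactive normoxic fibroblasts and in none of the other 12 libraries of the study. They were found by pooling the peaks of 16 lists on chromosomes 1 to 22 and X and merging intervals that overlapped by at least 1 bp. That gave 355447 merged regions, so the set is 0.748% of them. The regions were chosen by the peak calls of all 16 libraries, so their presence in Raf-inactive normoxia and absence elsewhere is the rule and not a finding. The study asked how low oxygen changes chromatin accessibility during Raf-induced senescence. ATAC-seq was done on IMR90, an established line of human lung fibroblasts, with Raf activity supplied by a retrovirus encoding ΔB-RAF:ER, a B-RAF kinase fused to the estrogen receptor that 4-hydroxytamoxifen (4-OHT) switches on. The 4 groups, with 4 libraries each, were Raf-active hypoxia, Raf-inactive hypoxia, Raf-active normoxia and Raf-inactive normoxia, hypoxia being 0.5% O2. The labels give neither the dose nor the duration of 4-OHT. Their treatment text, the same for all 16 libraries, mentions infection and 4-OHT without saying how the Raf-inactive cells differed, so whether those cells were uninfected, untreated or given a vehicle is not known here, nor whether replicates were separate cultures, so a p-value here reflects the scatter among these 16 libraries and no more, and that scatter may be technical. All cells are of 1 line.

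ATAC-seq uses Tn5 transposase, which inserts adapters where nucleosomes leave DNA exposed, so peaks mark promoters, enhancers and other exposed elements. Sustained Raf signalling drives fibroblasts into oncogene-induced senescence, a stable arrest in which heterochromatin is rearranged, cell cycle genes are silenced and inflammatory factors are secreted. Elements that differ between states of a cell tend to be enhancers far from gene starts, whereas promoters tend to stay open.

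The lists held 169287 to 206757 distinct peaks. They differed in depth in a way that the listed values show: peaks of 4.5- to 5.5-fold enrichment had a median −log10 p of 19.5 to 24.0 in Raf-active hypoxia, 14.4 to 15.1 in Raf-inactive hypoxia, 19.6 to 22.7 in Raf-active normoxia and 11.7 to 12.2 in Raf-inactive normoxia. The libraries that have these regions are therefore the ones in which a peak of a given enrichment reached the lowest significance. Absence means only that a library's list has no peak there, and how much of it is lower accessibility was not tested. Starts of fibroblast marker genes were open at 10 of 11 genes in every library. Starts of epithelial, endothelial, blood and neuronal markers were also often open (for example 6 to 8 of 9 epithelial starts), so open starts do not separate cell types here.

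A few of the regions overlap RefSeq start windows, and 6 such windows are shown to let the DNA of such a region be read. The PIK3CD and INSC regions end 115 and 14 bp from the start and do not cover it. Each window of 300 bases (250 before the start and 50 after it, GRCh38.p14, strand of the gene) is written in lower case with the bases inside the region in capitals. The 6 windows are KCNJ13 (chr2:232776516-232776815, minus strand), an inwardly rectifying potassium channel; ATP13A3 (chr3:194468336-194468635, minus), a P5-type ATPase; PIK3CD (chr1:9691217-9691516, plus), a catalytic subunit of phosphoinositide 3-kinase; the antisense RNA SYNE1-AS2 (chr6:152401996-152402295, plus); FRMD1 (chr6:168079163-168079462, minus); and INSC (chr11:15112174-15112473, plus), an adaptor of spindle orientation. The last 2 were added after their values were seen, for their many covered bases.
KCNJ13: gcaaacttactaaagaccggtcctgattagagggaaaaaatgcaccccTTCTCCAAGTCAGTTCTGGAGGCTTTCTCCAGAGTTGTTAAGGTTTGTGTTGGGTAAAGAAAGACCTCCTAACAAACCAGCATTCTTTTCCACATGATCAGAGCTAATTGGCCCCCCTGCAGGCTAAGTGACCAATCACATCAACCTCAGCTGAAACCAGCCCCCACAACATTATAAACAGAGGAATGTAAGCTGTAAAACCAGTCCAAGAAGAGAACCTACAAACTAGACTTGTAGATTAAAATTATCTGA
ATP13A3: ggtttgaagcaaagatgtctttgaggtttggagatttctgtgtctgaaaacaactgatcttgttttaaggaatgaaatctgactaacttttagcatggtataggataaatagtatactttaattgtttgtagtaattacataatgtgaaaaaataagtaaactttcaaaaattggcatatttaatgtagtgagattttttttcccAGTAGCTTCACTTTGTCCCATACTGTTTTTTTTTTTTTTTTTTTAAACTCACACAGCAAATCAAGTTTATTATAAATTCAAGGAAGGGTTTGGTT
PIK3CD: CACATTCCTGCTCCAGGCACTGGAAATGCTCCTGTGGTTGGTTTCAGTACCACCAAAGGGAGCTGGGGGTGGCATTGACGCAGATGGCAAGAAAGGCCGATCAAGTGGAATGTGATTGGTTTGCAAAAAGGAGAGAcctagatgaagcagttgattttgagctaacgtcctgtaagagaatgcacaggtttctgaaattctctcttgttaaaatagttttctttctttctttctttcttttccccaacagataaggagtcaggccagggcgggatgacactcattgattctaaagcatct
SYNE1-AS2: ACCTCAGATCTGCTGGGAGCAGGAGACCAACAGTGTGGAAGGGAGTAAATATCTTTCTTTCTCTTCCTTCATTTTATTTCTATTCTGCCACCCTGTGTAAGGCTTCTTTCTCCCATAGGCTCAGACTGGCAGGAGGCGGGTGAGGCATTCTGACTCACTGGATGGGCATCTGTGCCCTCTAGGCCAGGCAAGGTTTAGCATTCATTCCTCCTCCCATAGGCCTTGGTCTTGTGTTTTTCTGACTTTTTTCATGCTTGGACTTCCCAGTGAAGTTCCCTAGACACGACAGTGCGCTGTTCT
FRMD1: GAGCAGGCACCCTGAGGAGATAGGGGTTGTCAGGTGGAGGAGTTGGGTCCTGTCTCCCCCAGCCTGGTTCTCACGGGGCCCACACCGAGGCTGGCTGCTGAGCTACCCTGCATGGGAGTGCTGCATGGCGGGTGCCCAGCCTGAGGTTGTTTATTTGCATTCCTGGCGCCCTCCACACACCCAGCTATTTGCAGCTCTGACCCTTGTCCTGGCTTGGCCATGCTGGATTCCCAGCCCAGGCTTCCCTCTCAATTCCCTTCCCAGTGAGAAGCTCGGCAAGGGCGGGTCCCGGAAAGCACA
INSC: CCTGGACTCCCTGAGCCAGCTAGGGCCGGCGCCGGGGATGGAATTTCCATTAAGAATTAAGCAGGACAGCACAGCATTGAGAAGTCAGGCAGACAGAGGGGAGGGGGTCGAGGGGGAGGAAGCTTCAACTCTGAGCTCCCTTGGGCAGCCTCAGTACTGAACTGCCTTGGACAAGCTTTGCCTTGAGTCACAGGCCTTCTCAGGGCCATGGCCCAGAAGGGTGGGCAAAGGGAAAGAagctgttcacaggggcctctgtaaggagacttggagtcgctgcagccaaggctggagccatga

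The regions overlapped 15 of 34789 RefSeq start windows, 9 of them of protein-coding genes, which is 0.0431% of windows. Regions with peaks in all 16 libraries overlapped 17390 windows, or 50.0%. The 15 windows were poor in G and C, with a median GC content of 44.7% and 2 CpG dinucleotides a window, against 58.7% and 14 over all windows. The GC box GGGCGG stood in 2 of 15 windows and in 44.9% of all windows, and the TATA box TATAAA in 7 of 15 and in 11.6%. The TEAD motif GGAATG stood in 8 of 15 windows, against 14.1% of all, and inside the covered bases of the KCNJ13, PIK3CD, SYNE1-AS2 and FRMD1 windows printed above. The AP-1 motif TGANTCA stood in 3 of 15, against 7.69%, among them SYNE1-AS2 and INSC inside the covered bases. The CCAAT box stood in 6 of 15, against 34.6%, and the hypoxia response core ACGTG in 3 of 15, against 21.4%. The ETS motif CCGGAAG stood in none of the 15 and in 10.2% of all windows. Both strands were searched, and a match describes letters only. These 15 windows are a small minority of the set, and the sequence of the other regions was not analysed here.

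Peaks in these regions were weak in all 4 libraries. Their median fold enrichment in Raf-inactive normoxia replicates 1 to 4 was 4.71, 4.61, 4.73 and 4.67, while the medians of all peaks in those lists were 6.44, 6.48, 6.65 and 6.46. The median −log10 p of these regions was 10.7, 10.0, 11.7 and 11.4. Between 90.1% and 91.4% of the regions ranked below the median of their list. The ranking did not reach the top of any list: the highest region stood at percentile 75.9 to 81.4 by −log10 p. In all 4 libraries 373 regions, or 14.0%, had at least 5-fold enrichment, and 8 regions had at least 10-fold. The regions were 223 to 1802 bp long with a median of 369 bp, against 409 bp for all merged regions and 817 bp for regions open in all 16 libraries, and covered 1.08 Mb. Summits of the 4 libraries lay close together: the distance between the outermost was 41 bp at the median, and at most 50 bp in 61.8% of regions. Spearman's rho of fold between pairs of libraries was 0.50 to 0.54 over the 2659 regions, which share their library depth and a threshold on significance. Regions exclusive to another group were weak and short as well. For Raf-active hypoxia 87.0% to 89.2% of them ranked below the median of their list. The share was 90.9% to 95.3% for Raf-inactive hypoxia and 87.6% to 91.8% for Raf-active normoxia. In that order their median lengths were 338, 336 and 343 bp, so neither trait is particular to the set.

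How the set sits among regions not called in Raf-active cells is shown by relaxing the rule. In all, 24300 regions had peaks in 4 of 4 Raf-inactive normoxia libraries and in none of the 8 Raf-active libraries. Of these, 16177 (66.6%) also had a peak in all 4 Raf-inactive hypoxia libraries, and the 2659 with none are 10.9%. Between these ends lay 1579, 1692 and 2193 regions with a peak in 1, 2 and 3 of the hypoxic libraries. Median fold enrichment in Raf-inactive normoxia, as the range over its 4 libraries, was 4.61 to 4.73 where no hypoxic library had a peak. It was 4.96 to 5.11 with 1, 5.19 to 5.28 with 2, 5.45 to 5.69 with 3 and 7.18 to 7.37 with all 4. The regions of the set are thus the weak end of a graded series in the very libraries that define them. These values come from the same calls as the rule and are given without a test.

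**Figure D1:**
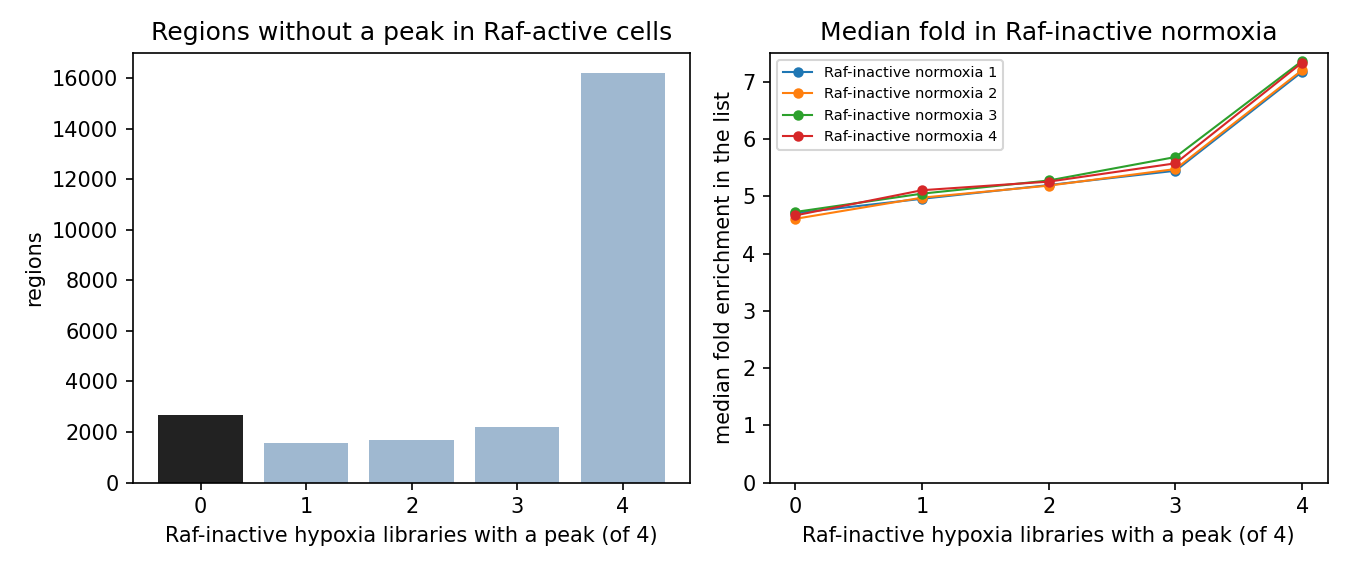
Regions with peaks in 4 of 4 Raf-inactive normoxia libraries and in no Raf-active library, by the number of Raf-inactive hypoxia libraries (0 to 4) with a peak. Left, number of regions, with the 2659 regions of the set in black; right, median fold enrichment in each of the 4 Raf-inactive normoxia libraries, lowest (4.61 to 4.73) for the set and highest (7.18 to 7.37) where all 4 hypoxic libraries had a peak.

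The edge of the rule shows the same neighbour. Regions in 4 of 4 Raf-inactive normoxia libraries and in exactly 1 of the other 12 numbered 1809, and that library was of Raf-inactive hypoxia for 1579 (87.3%), of Raf-active normoxia for 145 (8.02%) and of Raf-active hypoxia for 85 (4.7%). A further 2975 regions had peaks in 3 of 4 Raf-inactive normoxia libraries and in none of the 12. The other groups had 5354 exclusive regions in Raf-active hypoxia (1.51%), 1813 in Raf-inactive hypoxia (0.51%) and 6567 in Raf-active normoxia (1.85%) under the same rule. A peak of some other library lay within 500 bp of 300 of the regions (11.3%), and within 5 kb of 1913 (71.9%).

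Replicates that the choice did not use were looked at by choosing regions from the other 3 replicates of every group and asking which had a peak in the replicate held out. Such choices gave 3653 to 4342 regions. In the held-out Raf-inactive normoxia library, 76.3%, 77.3%, 80.2% and 82.0% of them had a peak, for replicates 1 to 4. Held-out Raf-active hypoxia libraries had a peak in 0.748% to 1.45% of them, and Raf-active normoxia libraries in 1.15% to 2.14%. Held-out Raf-inactive hypoxia libraries had a peak in 16.7%, 16.2%, 6.66% and 8.32%, which is above both Raf-active groups in every replicate. Regions chosen in the same way for another group recurred in its own held-out library to a like or higher degree. The share was 83.1% to 91.2% for Raf-active hypoxia, 80.1% to 82.8% for Raf-inactive hypoxia and 77.0% to 88.4% for Raf-active normoxia.

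The 10 strongest regions lay 22170 to 370271 bp from the nearest known protein-coding start. The region in SYNE1, however, covers the start of the antisense RNA SYNE1-AS2. Distances to named genes below are to the gene body. By their lowest rank over the 4 libraries, the first was chr5:32528576-32528954 (hg38), 56602 bp from SUB1, a transcriptional coactivator, with fold enrichments of 10.35, 9.33, 7.94 and 8.42 in replicates 1 to 4. The second was chr11:122285009-122285451, 168793 bp from BLID, with 15.14, 16.50, 12.40 and 12.78. The third, chr7:82745130-82745531, lay 8480 bp from PCLO, which encodes the presynaptic protein piccolo, and had 12.19, 11.84, 10.71 and 10.89. These 3 had summits within 28 bp of each other. Next came chr1:198416261-198416759, 93840 bp from the kinase gene NEK7, with a mean fold of 12.72 ± 0.35 (SD, n = 4). Of the top 10, 5 lay inside protein-coding genes: TNFAIP8, TRHDE, SYNE1, ZFAND3 and FOXN3, the last a forkhead transcription factor. The region in SYNE1 (chr6:152401920-152402600), the gene of the nuclear envelope protein nesprin-1, holds the SYNE1-AS2 window printed above and had fold enrichments of 10.65, 12.14, 12.62 and 13.60. The remaining one, 466 bp from TMEM255B, had a low mean fold of 4.01 ± 0.17 (SD, n = 4) but a −log10 p of 31.4 to 43.5.

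At gene starts the set was sparse. Within 1 kb of a known protein-coding start lay 23 regions, or 0.865% (exact 95% interval 0.549% to 1.30%, counting error only), against 14.8% of the regions open in all 16 libraries and 4.97% of all merged regions. The shares were 2.5% for regions exclusive to Raf-active hypoxia, 2.1% for Raf-inactive hypoxia and 1.23% for Raf-active normoxia. The graded series without Raf-active peaks gave 0.633%, 1.06%, 1.32% and 0.971% with a peak in 1, 2, 3 and 4 Raf-inactive hypoxia libraries. A low share at starts is thus not particular to the set. Starts were known for 15812 of 19974 genes, and counting either end of all genes gave 1.58% for the set and 8.04% for all regions. No distance to a start was available for the named regions on chromosome 8, at CPQ and NRG1, and regions without one counted as not at a start. Chromosome 8 holds 117 of the set and 16281 of all merged regions, and none of the 23 lies there. By the same ranking the first 8 regions at starts were those of C5orf15, SAP30, SOX6, DHX32, ATP13A3, PIK3CD, KCNJ13 and ZP1. SAP30 encodes a subunit of the Sin3 histone deacetylase complex, and its region (chr4:173371808-173372194, 854 bp from the start) had 2.89-, 2.82-, 3.09- and 2.68-fold enrichment. The region at SOX6 (chr11:16357001-16357337), a gene of an HMG-box transcription factor, lay 455 bp from the start and had 6.19-, 6.98-, 8.26- and 6.45-fold. The KCNJ13 region covered its start, with 5.95-, 5.98-, 7.11- and 5.11-fold, and lies within the gene GIGYF2. The PIK3CD region had 2.91-, 2.78-, 2.75- and 2.67-fold. Mean fold of these 8 ranged between 2.78 (PIK3CD) and 6.97 (SOX6).

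Most regions lay in gene bodies, 1667 of 2659 or 62.7%, against 55.9% of all merged regions. The share was 50.3% for regions exclusive to Raf-active hypoxia, 50.4% for Raf-inactive hypoxia and 58.7% for Raf-active normoxia. In the graded series above it was 59.2%, 61.9%, 60.0% and 58.1% for 1, 2, 3 and 4 Raf-inactive hypoxia libraries with a peak. The median distance to a known start was 65808 bp, against 49276 bp for all regions, with regions lacking a distance counted as far away. Gene-poor bins, the 877 of 3043 bins of 1 Mb with at most 1 protein-coding gene, held 326 of the regions, or 12.3% (exact 95% interval 11.04% to 13.57%), against 8.98% of all regions. The other exclusive sets lay on either side, with 10.2% for Raf-active hypoxia, 21.6% for Raf-inactive hypoxia and 5.09% for Raf-active normoxia. The graded series gave 13.2%, 13.3%, 15.9% and 17.1% in the same order as above. The nearest other merged region, from any of the 16 lists, was 2046 bp away at the median, against 1188 bp for all regions. In the Raf-inactive normoxia lists alone the surroundings were alike. Peaks within 10 kb on each side, scaled to the mean list length, averaged 2.1 per region, against 2.12 around all regions. Shares of regions from 1 set of calls have no replicates, and these differences were not tested.

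**Figure D2:**
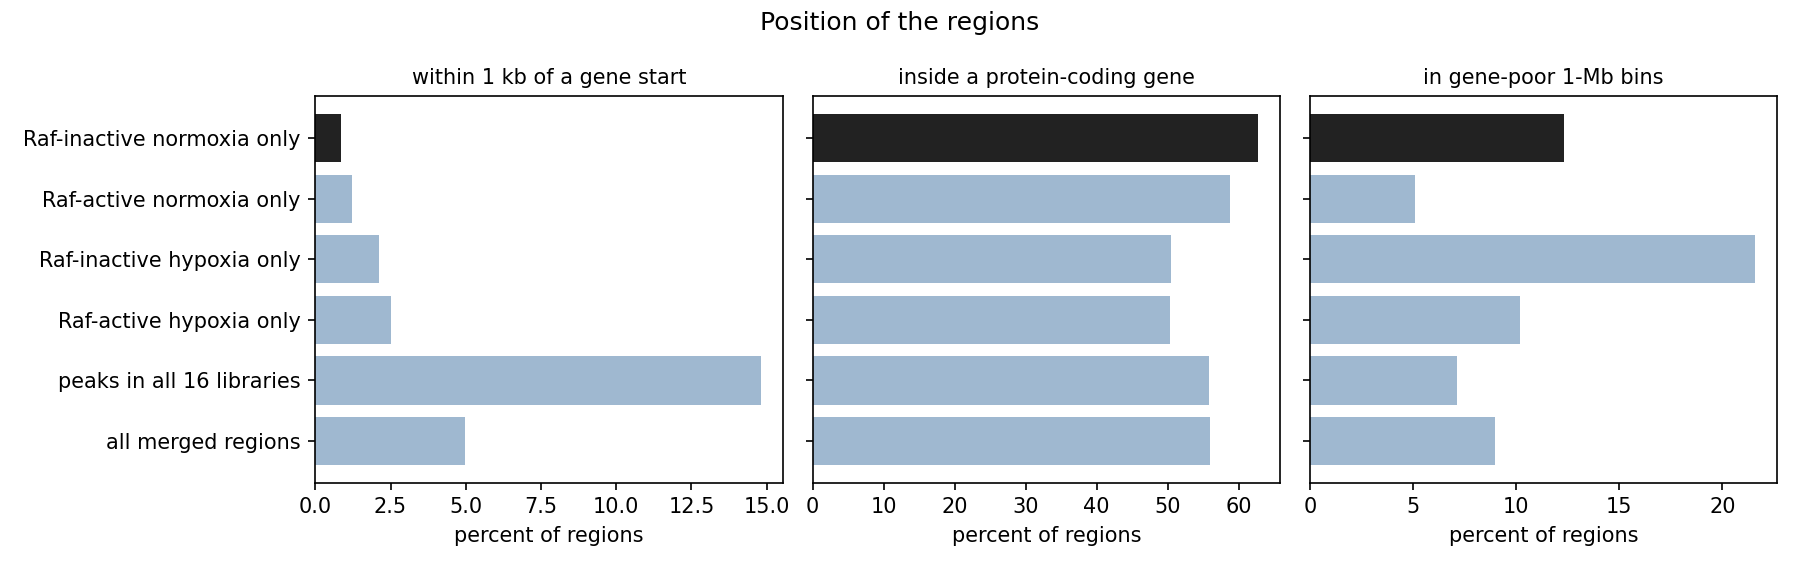
Percent of regions within 1 kb of a protein-coding gene start, inside a protein-coding gene and in gene-poor 1-Mb bins, for regions exclusive to each group, regions with peaks in all 16 libraries and all merged regions (bars start at 0). The set (black) has the lowest share at starts, 0.865%, and the highest inside genes, 62.7%.

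Along the chromosomes, 7.48 of 1000 merged regions belonged to the set. The rate was 11.3 on chromosome 13, 10.9 on chromosome 5, 9.86 on chromosome 18 and 9.65 on chromosome 4. It was 2.58 on chromosome 19, 4.1 on chromosome 22, 4.5 on chromosome X and 4.61 on chromosome 21. Regions exclusive to Raf-active normoxia had their highest rate on chromosome 19, 32.2 of 1000. Those exclusive to Raf-inactive hypoxia and to Raf-active hypoxia had their lowest rates there, 0.723 and 8.67. A low rate on chromosome 19 is thus not particular to the set. Regions exclusive to Raf-inactive hypoxia, 0.51% of all, had 9.19 on chromosome 4 and 8.12 on chromosome 13, but also 8.42 on chromosome X. The 1-Mb bins with the most regions of the set, named after their counts were seen, were chr2:220000001-221000000 with 8 regions and no protein-coding gene, and 4 bins with 7. A bin of these on chromosome 15 holds FBN1, and another, on chromosome 5, holds LMNB1, which encodes lamin B1. The remaining bins with 7, also on chromosome 5, hold MRPS27 and NR3C1. A bin with 6 regions on chromosome 6 holds COL12A1. Each of these bins holds other genes as well, and a shared bin does not place a region at a gene. Of 1481 bins with a region of the set, 772 had only 1.

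For genes, a locus was the body of the gene with 10 kb added at both ends. Of 19974 protein-coding loci, 1694 (8.48%) held at least 1 of the regions. The share grew with length, being 2.26% of loci under 50 kb and 42.4% of those over 500 kb, so gene groups are compared below also by regions of the set per 1000 merged regions, which was 7.02 over all loci. Genes of the fibroblast matrix held them at 13 of 45 loci, or 28.9%, at a rate of 14.8 per 1000. FBN1, the gene of the microfibril protein fibrillin-1, held 2, COL8A1 held 2 and COL12A1, a fibril-associated collagen, held 2. Cell cycle and replication genes held them at 4 of 48 loci (8.33%, 10.9 per 1000), chromatin modifiers and lamina genes at 5 of 43 (11.6%, 9.72 per 1000) and transcription factors of fibroblast identity at 10 of 49 (20.4%, 9.48 per 1000). HIF targets and glycolysis genes held them at 6 of 52 (11.5%, 8.18 per 1000), neural adhesion and synapse genes at 13 of 54 (24.1%, 7.99 per 1000, with a median locus of 702 kb) and growth factor pathway genes at 9 of 57 (15.8%, 7.24 per 1000). Lists can share genes: KDM4C, with 3 of the regions, counts both among HIF targets, which held 8 regions, and among chromatin modifiers, which also held 8. Genes of the secretory phenotype held them at 3 of 50 (6.0%, 3.71 per 1000), and RAF-MAPK response genes at 0 of 41. Fibroblast markers held them at 3 of 20 loci (7.73 per 1000, against 7.02 over all loci). Of the markers of other cell types 1 of 15 endothelial (VWF) and 1 of 15 neuronal (SNAP25) held them, each 6.67% against 8.48% of all loci, at 3.62 and 2.94 per 1000, and 0 of 19 epithelial and 0 of 15 blood loci did. These counts are small, and their difference from all loci was not tested.

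At CCNB2, which encodes the mitotic cyclin B2 and averaged too few peaks for the locus test, every one of the other 12 libraries had 1 peak in the locus and the Raf-inactive normoxia libraries had 4, 3, 3 and 4, of which 2 were regions of the set (chr15:59115094-59115492 and chr15:59116166-59116457). The first had 6.94-, 8.22-, 5.28- and 6.45-fold enrichment and the second 7.68-, 3.49-, 4.82- and 6.22-fold. KDM4C, which encodes a demethylase of histone H3 lysine 9, held 3, and its region chr9:7026976-7027577 had 4.95-, 6.48-, 6.88- and 7.11-fold. At FBN1 the regions chr15:48414102-48414411 and chr15:48458827-48459166 had mean folds of 5.84 ± 0.36 and 5.31 ± 0.72 (SD, n = 4). The loci with the most regions were CPQ and MRTFB with 5 each, then MAGI2, SGCD, SOX6, SUCLG2, SPIRE1, PTPRG, TANC1 and PTPRM with 4 each. By regions per 100 kb among loci with at least 3, MRPS27, METTL25, PRDM2, MRTFB, EXT2 and SPIRE1 led.

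Whether the surroundings of the set differ between groups was compared among the 3 groups that the rule left empty. The rule required all 3 alike to have no peak in a region and used no difference among them, and the peaks counted here lie outside the regions. The same lists supplied both the absence and the flanking peaks, so the comparison is not fully independent of the choice. Peaks within 10 kb on each side of a region, scaled to the mean list length, were 1.77, 1.78, 1.77 and 1.77 per region in Raf-active hypoxia replicates 1 to 4. They were 2.03, 2.03, 2.02 and 2.04 in Raf-inactive hypoxia and 1.77, 1.78, 1.78 and 1.80 in Raf-active normoxia. Raf-inactive normoxia, given as a description, had 2.09, 2.09, 2.12 and 2.11. The 2 Raf-active groups were lower than Raf-inactive hypoxia without overlap. Raf-active hypoxia minus Raf-inactive hypoxia was −0.26 (exact permutation test, two-sided, p = 0.0286, the smallest that 4 against 4 allow, and 0.0429 after Benjamini-Hochberg adjustment over 3 tests). Raf-inactive hypoxia minus Raf-active normoxia was 0.25 (exact p = 0.0286, adjusted 0.0429), and Raf-active hypoxia minus Raf-active normoxia was −0.00957 (exact p = 0.114). Regions chosen without Raf-inactive normoxia replicate 4 gave −0.0256 for the last (adjusted exact p = 0.0286). Around all merged regions the first 2 differences had the opposite sign, 0.22 and −0.31. Around regions exclusive to Raf-inactive hypoxia the means were 1.56 in Raf-active hypoxia, 2.1 in Raf-inactive hypoxia and 1.49 in Raf-active normoxia. Lower means in both Raf-active groups are thus not particular to the set. In the same order they were 2.45, 2.08 and 2.25 around regions exclusive to Raf-active hypoxia. Around those exclusive to Raf-active normoxia they were 2.75, 2.34 and 3.17, and these means were not tested. For the set the first 2 differences rest on the scaling: with unscaled peak numbers they were 0.0336 and −0.0251, both with an adjusted exact p of 0.771. A ratio to the flanks of all merged regions in the same library was added after seeing the data. It is the same with or without the scaling, but list length and depth can still enter through the flanks of all regions. The ratio was 0.764 ± 0.00124 in Raf-active hypoxia, 0.967 ± 0.00627 in Raf-inactive hypoxia and 0.739 ± 0.00842 in Raf-active normoxia (SD, n = 4 each). All 3 differences had an exact adjusted p of 0.0286. In the same order the unscaled flanks of the set averaged 1.9, 1.87 and 1.9. The ratio thus differs mainly through the flanks of all regions, which were 2.32, 2.1 and 2.41 when scaled. By that ratio Raf-active hypoxia was higher than Raf-active normoxia by 0.0245, the opposite sign to the scaled numbers. Raf-inactive normoxia had a ratio of 0.993. No peak at all lay in the flanks of 28.0% of the regions in Raf-active hypoxia, 20.5% in Raf-inactive hypoxia, 31.1% in Raf-active normoxia and 16.6% in Raf-inactive normoxia.

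**Figure D3:**
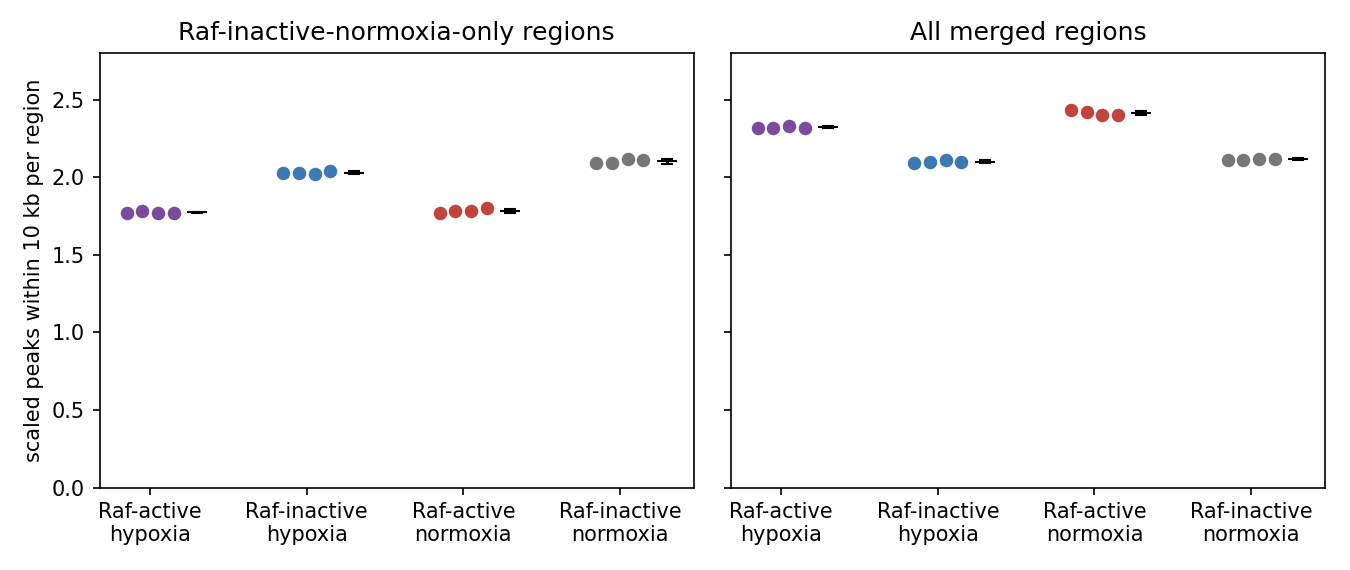
Scaled peaks within 10 kb on each side per region, around the regions of the set (left) and around all merged regions (right), in each of the 16 libraries (points), with the mean and SD of each group (black). Around the set the Raf-active groups lie at 1.77 and 1.78, below Raf-inactive hypoxia at 2.03, while around all regions both Raf-active groups lie above it.

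Gene loci were then compared. Raf-active hypoxia was compared with Raf-inactive hypoxia over the scaled peak number of the 15276 loci that averaged 3 peaks or more (limma on log2 of the number plus 1, adjusted p below 0.05). No region of the set has a peak in the 8 libraries compared, although absence from these libraries was part of the rule. Its Raf-inactive normoxia peaks did enter the filter on low loci and the shared estimate of the spread. The loci were also chosen through a Raf-inactive group, so a tilt toward Raf-inactive cells is not independent of the choice. Of the 1639 tested loci that held a region, 782 (47.7%) were lower and 350 (21.4%) were higher with Raf active, against a background of 26.3% lower and 34% higher among all tested loci (60.3% called in all). The median log2 change was −0.19 over these loci and 0.06 over all. With only the 8 libraries of the comparison, 1598 loci holding a region were tested, of which 767 (48%) were lower and 333 higher. Loci with more peaks are called more often, so the shares were also read within classes of mean peak number. Among loci with a mean of 10 to 20 peaks, 52.9% of those holding a region were lower, against 27.2% of those without one, and among loci of 3 to 10 peaks 40.8% were, against 22.5%. Without scaling, which shifted the median of all loci to 0.29, 517 of the loci holding a region were lower and 633 higher, and 78.6% of all called loci were higher, against 56.4% with scaling. Overlapping loci share peaks and are not independent.

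Hypoxia in Raf-active cells moved fewer of these loci. Between Raf-active hypoxia and Raf-active normoxia, 362 of the 1639 loci (22.1%) were higher and 212 (12.9%) lower, against 13% higher and 14.3% lower among all tested loci (27.3% called in all). The medians were 0.04 over the loci holding a region and −0.02 over all. Within classes of mean peak number the tilt was not uniform. In loci of 3 to 10 peaks, the class with the most holding loci (620), 16.8% of those holding a region were higher and 17.4% lower, against 10.7% and 14.3% of those without one, and both medians were −0.03. In loci of 40 peaks or more, 34.4% of those holding a region were higher and 8.61% lower, against 22.5% and 9.15%. Without scaling the counts were 306 higher and 280 lower, and 37.9% of all called loci were higher, against 47.7% with scaling. This comparison and the one above share the Raf-active hypoxia libraries. Against Raf-inactive normoxia, whose peaks chose the set, the medians over these loci were −0.29 for Raf-active hypoxia, −0.10 for Raf-inactive hypoxia and −0.29 for Raf-active normoxia, given as a description.

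**Figure D4:**
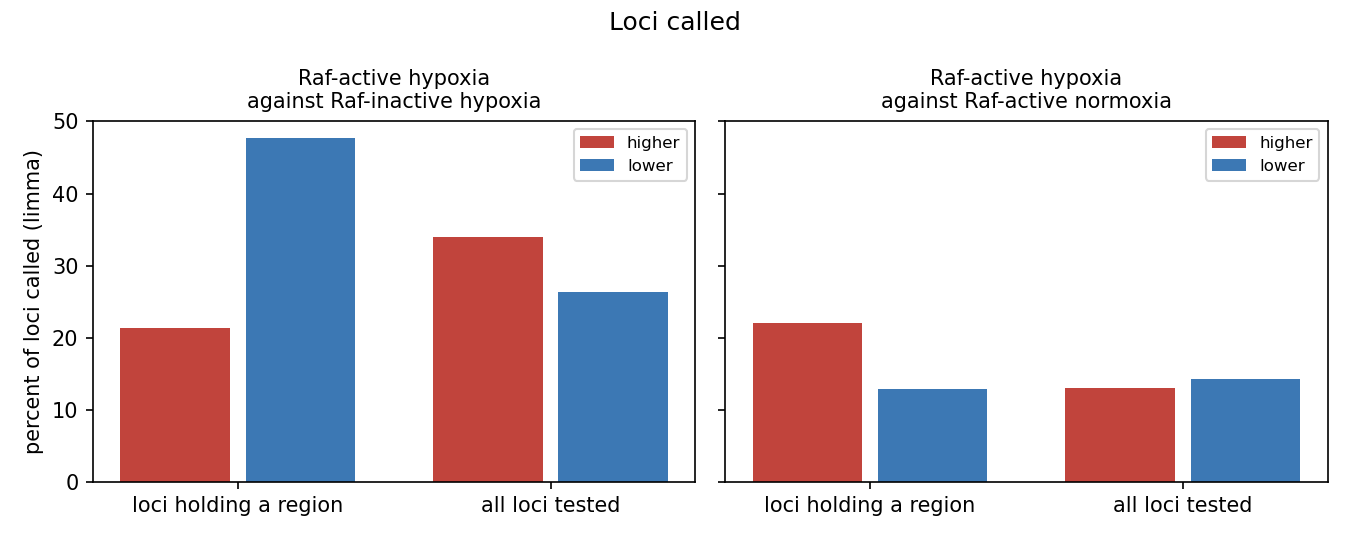
Percent of gene loci called higher or lower (limma, adjusted p below 0.05) in Raf-active hypoxia against Raf-inactive hypoxia (left) and against Raf-active normoxia (right), for the 1639 tested loci that hold a region of the set and for all 15276 tested loci. On the left 47.7% of the loci holding a region were lower, against 26.3% of all.

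Of the 14 loci with the most regions or the most per 100 kb, METTL25, a gene of a methyltransferase-like protein that held 3, had the lowest log2 change between the hypoxic groups. It had 1 peak in each Raf-active hypoxia library, 8, 7, 6 and 7 peaks in Raf-inactive hypoxia, 1 peak in each Raf-active normoxia library, and 10, 10, 11 and 10 in Raf-inactive normoxia. Raf-inactive normoxia counts here and below include the peaks of the set, which the rule requires there and forbids elsewhere. Without them METTL25 had 7, 7, 8 and 7 peaks there. Its log2 change in Raf-active against Raf-inactive hypoxia was −2.19 ± 0.07 (SE, limma adjusted p = 1.2e-12). SOX6 had 36, 40, 39 and 39 peaks in Raf-active hypoxia, 63, 64, 63 and 66 in Raf-inactive hypoxia and 27, 26, 25 and 28 in Raf-active normoxia. Raf-inactive normoxia libraries had 68, 65, 68 and 67, or 64, 61, 64 and 63 without the regions of the set. The Raf-active hypoxia libraries lay between the other Raf-active group and both Raf-inactive groups, with no overlap. The change was −0.98 ± 0.06 against Raf-inactive hypoxia (limma adjusted p = 1.4e-09) and 0.57 ± 0.06 against Raf-active normoxia (limma adjusted p = 6.44e-06).

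SUCLG2, a subunit of succinyl-CoA ligase in the citric acid cycle, had 15 to 17 peaks in Raf-active hypoxia, 24 to 27 in Raf-inactive hypoxia, 10 to 14 in Raf-active normoxia and 33 or 34 in Raf-inactive normoxia (29 or 30 without the regions of the set). Its changes were −0.90 and 0.55 (limma adjusted p = 1.48e-07 and 0.000171) in the same comparisons. PTPRG, a receptor tyrosine phosphatase, had 41 to 45 peaks in Raf-active hypoxia and 65 to 75 in Raf-inactive hypoxia, a change of −1.01 (limma adjusted p = 4.46e-09), and 42 to 49 in Raf-active normoxia, a change of −0.04 that did not pass. MAGI2, a scaffold protein, changed by −0.57 and TANC1 by −0.52 (limma adjusted p = 2.64e-06 and 6.27e-06). MRPS27, a mitoribosomal protein, changed by −0.43, SGCD, a sarcoglycan, by −0.36 and EXT2, an enzyme of heparan sulfate synthesis, by −0.21 (limma adjusted p = 0.00182, 0.000262 and 0.0351). SGCD and EXT2 were higher against Raf-active normoxia, by 0.41 and 0.48 (limma adjusted p = 0.000386 and 0.000451). The calls of MRPS27, SGCD and EXT2 ended, and EXT2 turned to 0.04, without scaling. The call of EXT2 also ended in loci of 50 kb and without any of Raf-inactive hypoxia replicates 1, 2 or 4 or Raf-active hypoxia replicates 1, 2 or 3 (limma adjusted p = 0.0508 to 0.089). With peaks of at least 5-fold alone the calls of MRPS27, TANC1 and SGCD ended, and SGCD turned to 0.03. CPQ, MRTFB, SPIRE1, PTPRM and PRDM2 did not pass, with changes of 0.06, 0.15, 0.01, −0.05 and −0.26, though each holds 3 to 5 regions of the set. Without scaling CPQ, MRTFB, SPIRE1 and PTPRM were called higher, at 0.32, 0.41, 0.27 and 0.22 (limma adjusted p = 0.000162, 0.000196, 0.00178 and 0.003), as were CPQ and MRTFB with peaks of at least 5-fold alone, at 0.30 and 0.35, and CPQ at equal list length, at 0.18, while PTPRM was called lower in loci of 50 kb, at −0.14. MRTFB was also called without Raf-inactive hypoxia replicate 1 (limma adjusted p = 0.0209). PRDM2, a histone methyltransferase gene, was called lower with the replicate block (−0.26, limma adjusted p = 0.0465), with −log10 q of at least 5 (−0.33), with peaks of at least 5-fold alone (−0.38), at equal list length (−0.35), and without Raf-active hypoxia replicate 1, Raf-inactive hypoxia replicates 3 or 4 or Raf-active normoxia replicates 2 or 3 (limma adjusted p = 0.013 to 0.0499).

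**Figure D5:**
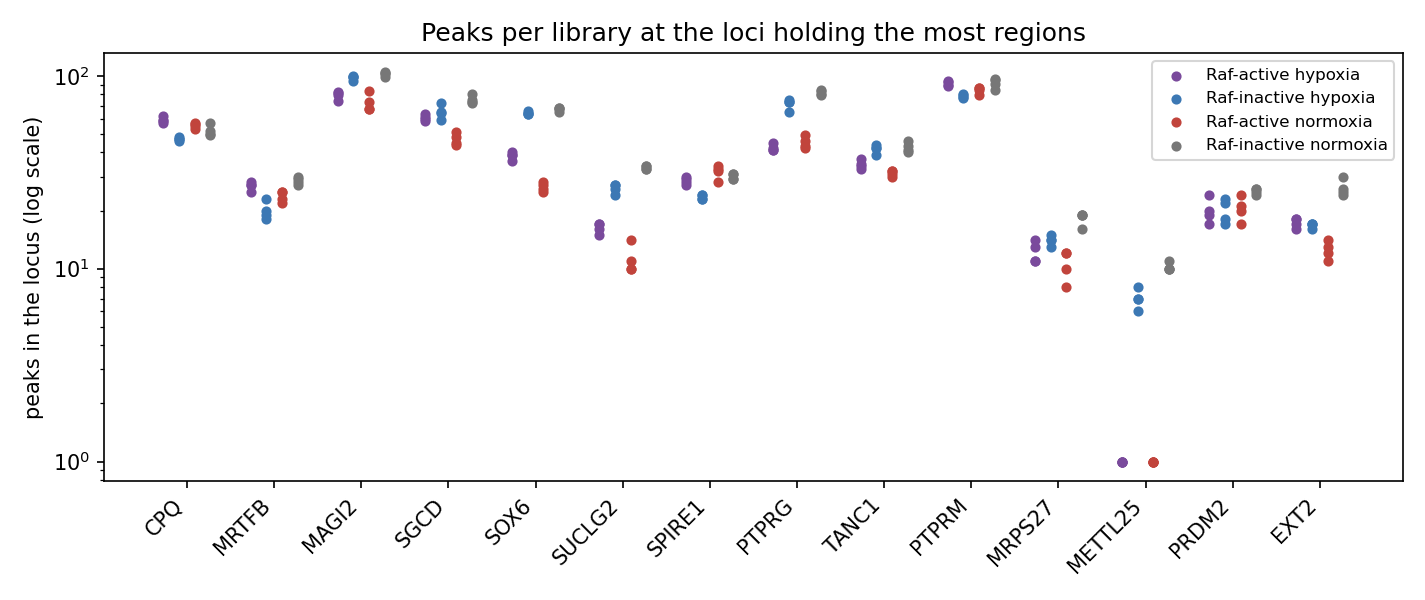
Peaks per library (log scale, before scaling) at the 14 loci with the most regions of the set or the most per 100 kb, coloured by group, 4 libraries each. Raf-inactive normoxia counts include the peaks of the set. METTL25 has 1 peak in every Raf-active library, and SOX6, SUCLG2 and PTPRG have fewer peaks in both Raf-active groups than in both Raf-inactive groups, while CPQ, MRTFB, SPIRE1 and PTPRM do not.

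Matrix genes that held a region mostly lost peaks with Raf active in hypoxia. Of 13 such loci 10 were lower and 1 higher, and of all 43 tested loci of the list 19 were lower and 7 higher. Over all tested loci 26.3% were lower and 34% higher, and over all 1639 that held a region 47.7% and 21.4%. The median log2 change was −0.45 over the 13 and −0.17 over the 43, against 0.06 over all loci. Without scaling 6 of the 13 were lower and 2 higher with a median of −0.19, while the median of the 43 turned to 0.08. FBN1 had 30, 28, 30 and 33 peaks in Raf-active hypoxia and 40, 37, 38 and 36 in Raf-inactive hypoxia, which did not overlap, and changed by −0.57 ± 0.09 (limma adjusted p = 4.95e-05). COL12A1 changed by −0.47 and COL8A1 by −0.45 (limma adjusted p = 0.000411 and 0.000746), the call of COL8A1 ending without scaling. COL1A2, a chain of type I collagen, had 8, 8, 8 and 9 peaks in Raf-active hypoxia and 11, 11, 14 and 12 in Raf-inactive hypoxia, and changed by −0.73 ± 0.11 (limma adjusted p = 2.2e-05), a call that ended with peaks of at least 5-fold alone. DCN, the proteoglycan decorin, changed by −0.32 (limma adjusted p = 0.0287), a call that ended without scaling and without any of 5 libraries: Raf-inactive hypoxia replicates 2 or 3 (adjusted p = 0.0596 and 0.101) and Raf-active hypoxia replicates 1, 2 or 4 (0.0604, 0.0549 and 0.0585). Against Raf-active normoxia 4 of the 13 were higher and none lower, against 13% higher and 14.3% lower of all tested loci, but with peaks of at least 5-fold alone 3 were lower and none higher.

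Neural adhesion and synapse genes, whose loci are very long, also held the set. Of 13 tested loci with a region 9 were lower and 1 higher with Raf active in hypoxia, as were 27 and 4 of all 37 tested, with medians of −0.90 and −0.74, or −0.64 and −0.49 without scaling. Over all tested loci 26.3% were lower and 34% higher with a median of 0.06, and over those that held a region 47.7% and 21.4% with a median of −0.19. Against Raf-active normoxia 11 of the 13 were higher and 1 lower, as were 27 and 1 of the 37, beside 13% higher and 14.3% lower of all tested loci and 22.1% and 12.9% of those that held a region. GRIK2, a kainate receptor subunit, had 17, 17, 15 and 15 peaks in Raf-active hypoxia, 44, 41, 44 and 47 in Raf-inactive hypoxia and 11, 10, 14 and 14 in Raf-active normoxia, and changed by −1.66 ± 0.10 (limma adjusted p = 1.35e-09) between the hypoxic groups. CNTN3, a contactin, had 23, 23, 21 and 22 peaks in Raf-active hypoxia, 37, 33, 35 and 36 in Raf-inactive hypoxia and 13, 15, 16 and 16 in Raf-active normoxia. It changed by −0.90 ± 0.08 and 0.59 ± 0.08 (limma adjusted p = 1.1e-07 and 7.52e-05). NRXN3, a neurexin, changed by −0.48 and 0.42 (limma adjusted p = 1.29e-05 and 0.000254), the second call ending with peaks of at least 5-fold alone. Whether the share at these loci differs from that of other genes of their length was not tested.

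Other groups gave mixed directions. KDM4C had 28, 26, 28 and 28 peaks in Raf-active hypoxia, 48, 44, 45 and 46 in Raf-inactive hypoxia and 16, 19, 15 and 19 in Raf-active normoxia. Raf-inactive normoxia libraries had 47, 51, 50 and 48, or 44, 48, 47 and 45 without the regions of the set. It changed by −0.98 ± 0.07 and 0.69 ± 0.07 (limma adjusted p = 8.28e-09 and 4.19e-06) against Raf-inactive hypoxia and Raf-active normoxia. EHMT1, which encodes a methyltransferase of histone H3 lysine 9, held a region of the set and yet rose, with 39, 40, 42 and 39 peaks in Raf-active hypoxia and 18, 16, 15 and 15 in Raf-inactive hypoxia, a change of 1.02 ± 0.07 (limma adjusted p = 5.6e-09). PLK1, a mitotic kinase, also rose by 0.66 (limma adjusted p = 3.09e-05), its region lying outside the gene body. E2F3, a transcription factor of the cell cycle, fell by 0.68 on the log2 scale (limma adjusted p = 1.65e-05). Of the growth factor genes with a region 7 of 9 were lower and 2 higher, among them PDGFD, a platelet-derived growth factor, at −1.36, GLI3, a Hedgehog pathway factor, at −0.68, and IGF1R, the receptor of insulin-like growth factor 1, at −0.21 (limma adjusted p = 5.84e-09, 1.59e-07 and 0.0082). Of all 54 tested growth factor loci 24 were lower and 15 higher. Over all tested loci 26.3% were lower and 34% higher, and over those that held a region 47.7% and 21.4%. Without scaling 4 of the 9 were lower and 2 higher, as were 12 and 19 of the 54, and IGF1R turned to 0.05. Its call also ended with peaks of at least 5-fold alone. Of the identity transcription factors with a region 5 of 10 were lower and none higher, but without scaling 2 were lower and 4 higher. The share lower was 47.7% over all loci that held a region, so the count of identity factors was near that background. TEAD1, RUNX2 and FOXP1, the 3 named of that list, did not pass, with 0.02, 0.09 and −0.12, nor did the fibroblast marker TBX5 with −0.13. Their calls moved with the settings. Without scaling TEAD1, RUNX2 and FOXP1 were called higher, at 0.29, 0.35 and 0.15 (limma adjusted p = 0.000883, 0.000153 and 0.0301). With peaks of at least 5-fold alone RUNX2 was called lower, at −0.20, and TBX5 higher, at 0.41 (limma adjusted p = 0.0373 and 0.0211), and in loci of 50 kb FOXP1 was called lower, at −0.19 (limma adjusted p = 0.00508). P4HA2, a collagen prolyl hydroxylase, fell by 0.54 (limma adjusted p = 6.69e-06), ending with peaks of at least 5-fold alone, and LOX and CTCF did not pass, with −0.07 and −0.08. With peaks of at least 5-fold alone LOX was called higher, at 1.08, and in loci of 50 kb lower, at −0.60, as was CTCF at −0.24. Of the secretory genes with a region TNFRSF1A, a receptor of tumor necrosis factor, changed by −0.41 and NRG1 by −0.19 (limma adjusted p = 0.000221 and 0.00804), and IGFBP2 did not pass with −0.21. Without scaling the call of TNFRSF1A ended and NRG1 turned to 0.07. IGFBP2 was called lower without the filter on low loci (limma adjusted p = 0.0479) and without Raf-inactive hypoxia replicate 1 (0.00792), and higher, at 0.64, with peaks of at least 5-fold alone. Of the markers of other cell types SNAP25 changed by −0.78 (limma adjusted p = 9.17e-07), and VWF did not pass with 0.13, although it was called higher without Raf-inactive hypoxia replicate 2 (limma adjusted p = 0.0442), without scaling, at 0.39, and with peaks of at least 5-fold alone, at 0.37. It was also called with −log10 q of at least 5, at equal list length and in loci of 50 kb, at 0.23, 0.35 and 0.17.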

How the data were processed

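ATAC-seq peaks of 16 libraries, 4 in each of 4 groups named by the labels' treatment field, were used, and replicates had not been pooled by the authors. Per the submitters' processing notes the assembly was hg38 and the tools were MACS2, Bowtie2, cutadapt, Picard, SAMtools, bedtools, FastQC and deepTools; versions, settings and read totals are not given in the sources used here. The authors deposited 1 peak list per library with a score, a fold enrichment (ratio over local background) at the summit, −log10 p and −log10 q. The −log10 p and −log10 q rise with depth, and these values were used only to describe, rank or filter peaks within a list. Lines with the same interval counted as 1 peak. Chromosome Y and unplaced sequences were left out.

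Members and gene lists were chosen with earlier results of these data known. Genes were taken from RefSeq (GRCh38.p14), which is the assembly of hg38; no genome sequence was used here. Named were the 10 regions of the highest lowest rank by −log10 p, the 8 such at gene starts, the 10 loci with the most regions, the 6 with the most per 100 kb among those with at least 3, and up to 3 per gene list. Flanking peaks were scaled to the mean list length and compared by exact permutation tests. Locus peak numbers were scaled to the mean total, kept at a mean of at least 3, taken as log2(number + 1) and fitted in limma 3.58.1 (R 4.3.3) with 4 group means over all 16 libraries. Fold changes on that scale understate the change of low loci. The call was a Benjamini-Hochberg adjusted p below 0.05 over all 15276 loci. The steps were tested on simulated data. Alternatives were other presence rules, peak filters, equal list lengths, other flanks and loci, no scaling, another pseudocount, no filter on low loci, only the 8 libraries of a comparison, a replicate block and each library left out. Python 3.11.15 with numpy 2.4.6, pandas 2.3.3 and scipy 1.17.1 was used.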

Additional observations from a re-analysis of the deposited data

Results flagged for a closer look

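A library stood apart from the other 3 of its group in 23 of 181 groups of 4 values (Dixon's ratio at 95%), where chance flags about 1 in 20. Many of these are small whole numbers with ties, in which a difference of 1 peak is enough. Flanking peaks of Raf-active hypoxia were 1.78 in 1 library and 1.77 in the others. In Raf-active hypoxia the library apart had 7 peaks at PLK1, 6 at TNFRSF1A, 9 at IGFBP2, 26 at KDM4C, 9 at COL1A2, 8 at DCN, 31 at VWF and 8 at SNAP25, against 8, 7, 10, 28, 8, 7, 30 and 7 in the others. In Raf-inactive hypoxia it had 94 peaks at MAGI2, against 99 to 100, 16 at EXT2 and 16 at COL12A1, against 17 at both, 3 at PLK1, against 4, 7 at TNFRSF1A, against 8, 8 at IGFBP2, against 10, and 29 at RUNX2, against 27. In Raf-active normoxia it had 8 peaks at TNFRSF1A, against 9, 9 at P4HA2, against 10, and 66 at NRXN3, against 57 to 58. In Raf-inactive normoxia it had 16 peaks at MRPS27, against 19, 11 at METTL25, against 10, 8 at LOX, against 7, and 55 at TEAD1, against 48 to 49. The causes were not tested.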

How the results depend on the processing

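The number of regions was 5634 when 3 of 4 Raf-inactive normoxia libraries sufficed and 4468 when 1 of the other 12 could have a peak. The share at gene starts was 1.55% among peaks of at least 5-fold, 1.65% within 2 kb and, added after seeing the data, 1.58% at either end of all genes. The share in gene-poor bins was 3.84% for bins with no gene. Flanking peaks in Raf-active against Raf-inactive hypoxia gave 0.0336 without scaling and −0.281 to −0.245 with 1 library left out, and Raf-inactive hypoxia against Raf-active normoxia gave −0.0251 and 0.23 to 0.271; 4 libraries against 3 cannot pass the threshold. Raf-active hypoxia against Raf-active normoxia gave −0.0238 with −log10 q of at least 5, −0.0155 with at most 1 of 12, −0.115 in flanks of 50 kb, −0.0256 to −0.00413 with 1 library left out, and turned to 0.00346 away from peaks within 500 bp, 0.00713 in 5 kb, 0.00846 unscaled and 0.0245 as a ratio to all regions. The causes were not tested.

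Totals of called loci, both directions together, stayed within 1.5 times under every alternative run. By direction they did not: between the hypoxic groups without scaling 8201 loci were higher and 2238 lower, against 5192 and 4016, and of those that held a region 633 and 517, against 350 and 782. With peaks of at least 5-fold 3422 loci were higher. Between the Raf-active groups 3301 loci of 50 kb were higher, against 1992. Locus changes between the hypoxic groups that turned sign without scaling were CTCF 0.16, EXT2 0.04, FOXP1 0.15, IGF1R 0.05, IGFBP2 0.04, LOX 0.17, NRG1 0.07, PTPRM 0.22 and TBX5 0.12. With peaks of at least 5-fold they were CTCF 0.13, IGFBP2 0.64, LOX 1.08, NRG1 0.03, PTPRM 0.11, RUNX2 −0.20, SGCD 0.03, SPIRE1 −0.07 and TBX5 0.41. With −log10 q of at least 5 they were LOX 0.01 and SPIRE1 −0.06, at equal list length LOX 0.01, and in loci of 50 kb SPIRE1 −0.08 and TEAD1 −0.05. With 1 library left out CTCF ranged from −0.20 to 0.04 and SPIRE1 from −0.01 to 0.03. Of 1025 values of 41 named loci under the alternatives, 948 kept direction and side of the threshold, 22 lost the call, 30 gained one and 25 turned sign; of 175 values of 7 loci against Raf-active normoxia, 174 kept both.

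With the replicate number as a block 9105 loci, 1115 of them holding a region, were called between the hypoxic groups, and 3965 and 549 between the Raf-active groups. The numbers do not pair the libraries (r of deviations −0.032 to 0.017 over 24 pairs), which share only a number. The planned GC content was not run, since no genome was used here. Depth limits absence: a region without a listed peak may still be accessible.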
